A study of Mus musculus with 9 samples.

Results

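BMP-SMAD target genes are genes whose transcription is switched on by bone morphogenetic protein (BMP) signalling. The 10 genes described here were taken by symbol, as Id1, Id2, Id3, Id4, Smad6, Smad7, Smad9, Bambi, Atoh8 and Hey1, and all 10 were found among the 40879 gene symbols of the deposited count and FPKM tables. They were measured by RNA sequencing of spinal cord from male mice in 9 libraries. The SNI+LDN193189, SNI and sham groups had 3 libraries each. SNI is the usual short name of spared nerve injury, a model of neuropathic pain made by cutting some branches of the sciatic nerve. LDN193189 blocks the kinases of BMP type I receptors, ACVR1 among them, and the animals that received it had the injury too. The labels give no strain, age, cord segment or side, time after injury, dose, route or vehicle, and do not say whether the injured animals without the compound received a vehicle. They call the replicates separate biosamples without naming animals, so p-values here rest on the spread between samples that may be technical.

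In BMP signalling a ligand brings together type II and type I receptor kinases, the type I receptor phosphorylates SMAD1, SMAD5 and SMAD9, and these enter the nucleus with SMAD4. The ID genes are the best known direct targets. ID proteins lack a DNA-binding region and hold E proteins, their partners, away from DNA, which restrains the differentiation of neural and glial precursors. Other targets feed back on the pathway: SMAD6 and SMAD7 block the receptor-activated SMADs, and BAMBI is a receptor-like membrane protein without a kinase domain. An inhibitor of the type I receptors acts on the step before all of these.

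The columns of the tables carry the letters L, N and S with a replicate number, read from the names as SNI+LDN193189, SNI and sham. If S stood for SNI, SNI and sham would be exchanged in every result. Libraries held 33432776 to 37190467 counts. Sprr1a, a gene of neurons with cut axons, measured 6.38, 17.4 and 0.688 CPM for replicates 1 to 3 of SNI+LDN193189, 6.62 to 23.0 CPM in SNI and 0.161 to 0.235 CPM in sham. CPM are counts scaled to a common library size, with TMM factors between libraries. SNI+LDN193189 replicate 3 thus lay nearer to sham in this gene than any other library from an injured animal, and values without it are given for some results. Markers of the cord's own cells were abundant in all libraries, the 8 neuronal markers summing to 4543 to 4787 CPM in SNI+LDN193189, 4500 to 4688 in SNI and 3956 to 4634 in sham. Markers of Schwann cells and nerve root differed widely, summing to 480 to 1296 CPM in SNI+LDN193189, 134 to 581 in SNI and 559 to 4422 in sham, with the highest sum in sham replicate 3. Skeletal muscle markers summed to 610 CPM in sham replicate 1 and to 2.82 to 13.5 CPM in the other libraries. Sensory ganglion neuron markers summed to 47.9 CPM in sham replicate 2 and to 5.86 to 10.7 CPM in the others. The part of these 2 marker sets in the values of the members was not tested. The astrocyte marker Aqp4 and the microglial marker P2ry12 were listed at 0 in all libraries. Other markers of these cells were counted, Gfap of astrocytes at 981 to 1537 CPM and Cx3cr1 of microglia at 33.4 to 50.5 CPM. A listed 0 is therefore not read here as absence of the cells, and its reason was not tested.

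Promoter sequences are shown for 3 members because the results refer back to them: the groups of Id2 did not overlap between compound-treated and injured cords, those of Id4, with the same element, did, and Smad6 is a feedback gene with another element. The sequences are from RefSeq on GRCm38.p6, the windows run from 250 bases before to 50 after the annotated start, and 6 of the 10 members matched a window. Capitals mark GGCGCC, the core of the GC-rich element bound by BMP-activated SMADs, and GTCTAGAC, the palindromic SMAD-binding element.
Id2 (chr12:25096043-25096342, minus strand): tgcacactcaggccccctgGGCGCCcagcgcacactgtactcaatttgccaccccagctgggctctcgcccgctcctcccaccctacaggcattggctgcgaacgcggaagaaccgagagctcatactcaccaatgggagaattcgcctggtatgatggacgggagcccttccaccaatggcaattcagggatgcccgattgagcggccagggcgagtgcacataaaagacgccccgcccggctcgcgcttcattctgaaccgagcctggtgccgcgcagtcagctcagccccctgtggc
Id4 (chr13:48260866-48261165, plus strand): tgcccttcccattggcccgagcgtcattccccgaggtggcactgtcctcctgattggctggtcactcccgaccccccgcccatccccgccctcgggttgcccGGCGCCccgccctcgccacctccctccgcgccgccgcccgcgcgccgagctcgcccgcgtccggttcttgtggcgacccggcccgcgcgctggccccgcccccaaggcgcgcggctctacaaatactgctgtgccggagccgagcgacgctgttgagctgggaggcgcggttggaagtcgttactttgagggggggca
Smad6 (chr9:64022010-64022309, minus strand): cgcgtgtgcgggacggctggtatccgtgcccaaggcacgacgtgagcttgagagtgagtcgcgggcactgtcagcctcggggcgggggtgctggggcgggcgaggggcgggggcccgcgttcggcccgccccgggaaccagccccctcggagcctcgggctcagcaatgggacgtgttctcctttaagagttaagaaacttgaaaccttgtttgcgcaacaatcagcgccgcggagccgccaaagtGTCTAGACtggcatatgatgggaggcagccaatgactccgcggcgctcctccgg

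GGCGCC, which reads the same on both strands, was in the windows of Id2, Id4 and Smad9, 3 of 6, and in 11.9% of the 32851 windows of all genes. GTCTAGAC, also its own reverse complement, was in the Smad6 window, 1 of 6, and in 0.213% of all windows. A shorter SMAD box, GTCTG on either strand, was in the Id3 window, 1 of 6, and in 49.6% of all windows. The variant GGAGCC on either strand was in the windows of Id2, Id3, Id4, Smad6 and Smad9, 5 of 6, and in 30.8% of all windows. None of the 4 motifs was in the Atoh8 window. The windows of the members held 60.0 to 73.7% G and C, against a median of 52.7% over all windows, which bears on how often GC-rich motifs are met. These are matches of letters and not measured binding sites, and the BMP-responsive enhancers described for Id1 lie further upstream than such a window.

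The 10 members spanned a wide range of levels per gene length. In the deposited FPKM, which the authors scaled by gene length and library total, the mean over 9 libraries was highest for Id2, at 69.8, and no library of Id2 overlapped with any of Id4. Id4 and Id3 followed at 28.6 and 24.0 FPKM with overlapping ranges, then Hey1 at 17.8 FPKM. Smad9 at 9.63 and Id1 at 8.47 FPKM overlapped, and Smad7 lay below them at 5.39 FPKM. Atoh8, Smad6 and Bambi formed the low end at 1.16, 0.709 and 0.674 FPKM, with neighbours overlapping. Over the 9 libraries Smad6 held 46 to 110 counts and Bambi 86 to 204, with coefficients of variation of 23.4 and 23.1%, the largest of the 10. Atoh8, with 88 to 138 counts, had 15.6% and Id2, with 2274 to 3819, had 16.4%, while Smad9 held 1940 to 2286 counts with 6.27%, the smallest. The count was an even number in all 9 libraries for Smad6 and Bambi, in 8 for Atoh8 and in 3 to 7 for the other members. Why even counts prevailed was not tested. Each of the 10 genes passed the low-count filter, which 18245 genes passed in all.

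**Figure D1:**
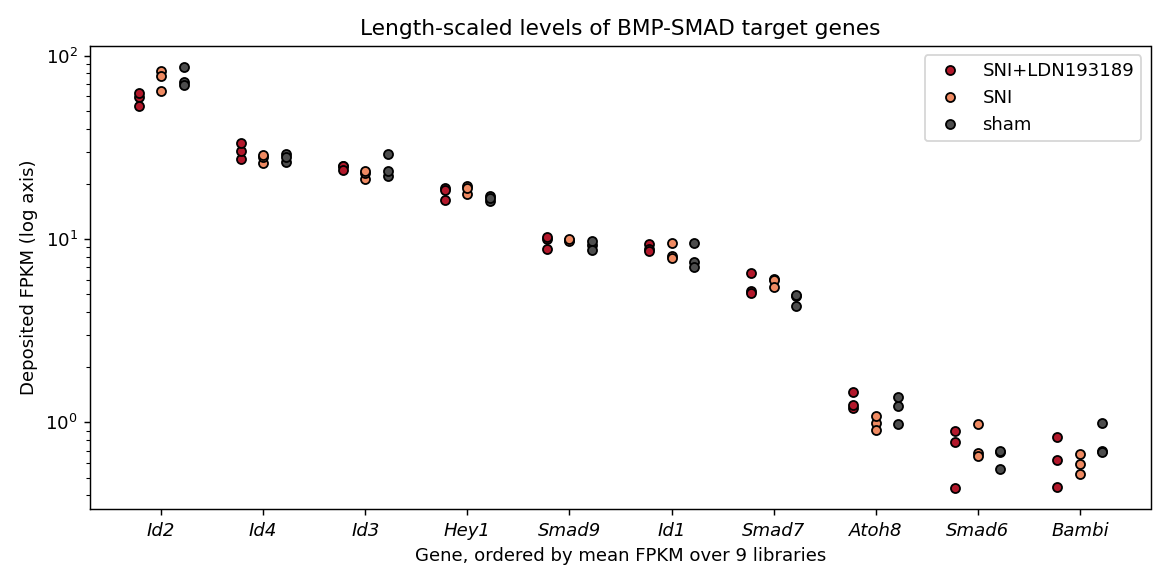
Deposited FPKM of each BMP-SMAD target gene in every library, on a log axis, with genes ordered by their mean over 9 libraries and points coloured by group. Id2 lies above all other members in every library, and Atoh8, Smad6 and Bambi lie below 1.5 FPKM.

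SNI+LDN193189 against SNI asked whether the targets of the pathway were lower in injured mice that received the compound. Whether the receptor kinases were inhibited in the cord was not measured in these data. None of the 10 members passed the edgeR quasi-likelihood test at a Benjamini-Hochberg (BH) adjusted p under 0.05, where 0.00548% of all genes tested did, and the adjusted p was 1.00 for each of them. Of the members 5 had a positive and 5 a negative log2 fold change, with a median of 0.03 against a median of -0.00 over all genes, of which 49.8% were positive. Without SNI+LDN193189 replicate 3, 7 of 10 members had a positive log2 fold change, with a median of 0.09. An unadjusted p under 0.05 was reached by 1 of 10 members, Id2, and by 3.88% of all genes. The 3 libraries of each group did not overlap for Id3 and Atoh8, which were higher, and for Id2, which was lower. Such separation was seen in 5.71% of all genes for higher and 5.55% for lower.

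**Figure D2:**
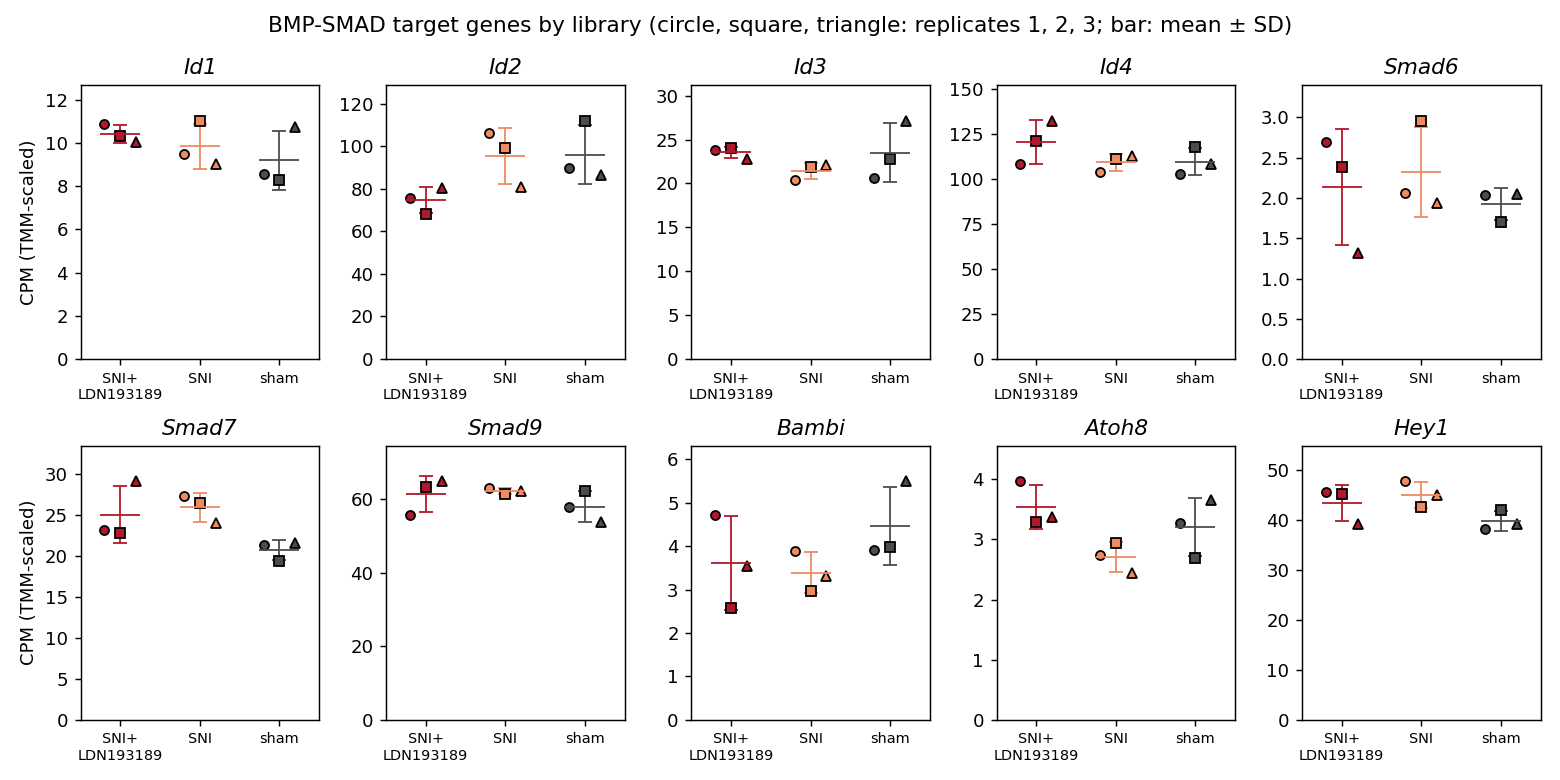
CPM of the 10 BMP-SMAD target genes in each library, with 1 point per library, the replicate number given by its shape and bars for mean ± SD (n = 3 per group). The 3 SNI+LDN193189 libraries of Id2 lie at 67.9 to 80.2 CPM, below all others, while Id1, Id4 and Smad9 overlap between all groups.

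Id2 restrains E proteins in precursors and is also known to be expressed with a daily rhythm in mice. It held 75.6, 67.9 and 80.2 CPM in SNI+LDN193189 replicates 1, 2 and 3, against 106, 99.0 and 80.7 CPM in those of SNI and 89.8, 112 and 86.3 CPM in those of sham. All 3 compound-treated libraries lay below the other 6, though SNI replicate 3 was only just above them. The log2 fold change of SNI+LDN193189 against SNI was -0.35 (95% interval -0.65 to -0.06), a ratio of 0.783, with an unadjusted p of 0.0238 and an adjusted p of 1.00 by edgeR. Against sham it was -0.36 (95% interval -0.66 to -0.07), with an unadjusted p of 0.0208 and an adjusted p of 0.547 by edgeR. Both comparisons contain the same compound-treated libraries. Without SNI+LDN193189 replicate 3 the log2 fold change against SNI was -0.41 and without SNI replicate 3 it was -0.46, while without SNI replicate 1 it was -0.27. Id2 lies on chromosome 12 at 25093799 to 25097140 on the minus strand in GRCm38, and its promoter with 1 GGCGCC is given above.

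The level of Id2 ran against that of Dbp, a transcription factor gene driven by the circadian clock, which was chosen after its values were seen. Dbp measured 40.5, 47.5 and 36.3 CPM for replicates 1 to 3 of SNI+LDN193189, 20.7, 23.3 and 41.5 CPM for those of SNI and 14.5, 14.5 and 24.3 CPM for those of sham. The 4 libraries with the least Id2, the 3 of SNI+LDN193189 and SNI replicate 3, were the 4 with the most Dbp. Other genes were looked at too. Per1, Per2, Tsc22d3 and Fkbp5 stood higher in every SNI+LDN193189 library than in any of SNI, replicate 3 of SNI included. Among the cell marker lists, the summed sensory ganglion neuron markers had the highest Pearson r with Id2, 0.61 on the log2 scale over 9 libraries. Sham replicate 2 held the most of both, with 47.9 CPM of these markers, and their part in the level of Id2 was not tested. In a fit chosen after the data had been seen, with the log2 level of Dbp as a further term, the log2 fold change of Id2 in SNI+LDN193189 against SNI was -0.12 (unadjusted p = 0.166 by edgeR). In the same fit it was 0.10 in SNI+LDN193189 against sham (unadjusted p = 0.419 by edgeR), turned from -0.36, and 0.23 in SNI against sham (unadjusted p = 0.0198, adjusted p = 0.341 by edgeR), turned from -0.01. Of the variance of that covariate 69.9% lay between the groups, so the covariate and the group share much of their difference.

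**Figure D3:**
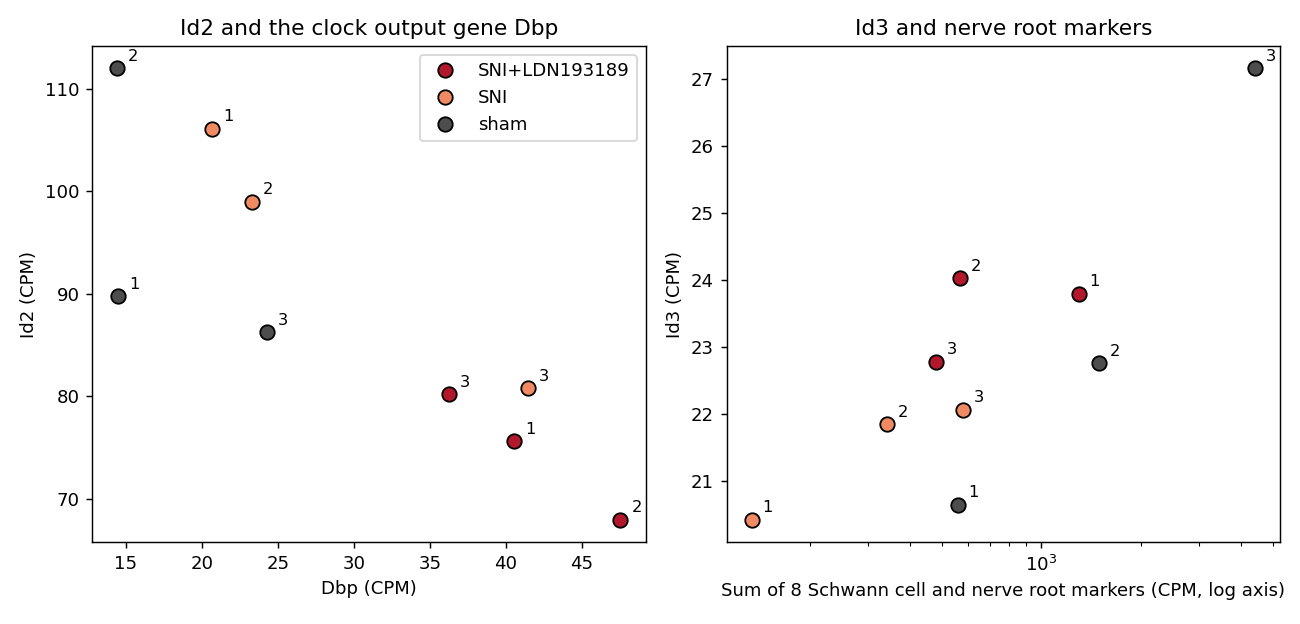
Left, CPM of Id2 against CPM of Dbp, and right, CPM of Id3 against the summed CPM of 8 Schwann cell and nerve root markers on a log axis, with 1 point per library, coloured by group and numbered by replicate. Libraries with over 36 CPM of Dbp hold 67.9 to 80.7 CPM of Id2, and sham replicate 3 holds both the most Id3, at 27.2 CPM, and the most nerve root RNA, at 4422 CPM.

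The other ID genes had positive log2 fold changes against SNI, and their difference from Id2 was not tested. Id1, the canonical BMP target in most cell types, held 10.9, 10.3 and 10.0 CPM in SNI+LDN193189, against 9.48, 11.0 and 9.02 CPM in SNI and 8.55, 8.27 and 10.8 CPM in sham. The groups overlapped, and the 95% interval of the ratio of SNI+LDN193189 to SNI ran from 0.871 to 1.28 around 1.06 (adjusted p = 1.00 by edgeR). Id3 stood at 23.8, 24.0 and 22.8 CPM in SNI+LDN193189 and at 20.4, 21.9 and 22.1 CPM in SNI, with no overlap and a log2 fold change of 0.13 (95% interval -0.07 to 0.34, unadjusted p = 0.180 by edgeR). In sham Id3 stood at 20.6, 22.8 and 27.2 CPM. The highest value was that of sham replicate 3, whose nerve root markers summed to 4422 CPM, and the lowest that of SNI replicate 1, whose markers summed to 134 CPM. With the mean log2 level of these markers as a covariate the log2 fold change of Id3 in SNI+LDN193189 against SNI was 0.01 (unadjusted p = 0.936 by edgeR). Between the groups lay 52.4% of the variance of that covariate. In the fit with Dbp, chosen after the data had been seen, the same log2 fold change of Id3 was 0.00079. Its drop was therefore not particular to the nerve root term.

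Id4, which is expressed in astrocytes and neural precursors, held 108, 121 and 132 CPM in SNI+LDN193189, against 104, 111 and 113 CPM in SNI and 103, 118 and 108 CPM in sham. The groups overlapped, with a log2 fold change of 0.14 against SNI (95% interval -0.01 to 0.29, unadjusted p = 0.067 by edgeR). Without SNI+LDN193189 replicate 3, the highest library, it was 0.07. Astrocyte markers summed to 6555 to 6986 CPM in SNI+LDN193189 and 6477 to 6991 CPM in SNI, and their part in the value of Id4 was not tested. The antisense gene A330033J07Rik overlaps the start of Id4, held 271 to 403 counts in a library and could share reads with it, since the sources used here do not say whether counting used strand. Id1 lies on chromosome 2 at 152736251 to 152737410, Id3 on chromosome 4 at 136143497 to 136145755 and Id4 on chromosome 13 at 48261228 to 48266026, all on the plus strand in GRCm38.

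The feedback inhibitors did not differ beyond their spread between SNI+LDN193189 and SNI. Smad7, which recruits ubiquitin ligases to the receptors and blocks BMP as well as TGF-beta signals, held 23.2, 22.9 and 29.1 CPM in SNI+LDN193189 and 27.4, 26.5 and 24.0 CPM in SNI. The ratio was 0.966 with a 95% interval of 0.836 to 1.12. On the log2 scale this was -0.05, and -0.17 without SNI+LDN193189 replicate 3, the highest library. Smad6, more selective for the BMP branch, held 2.70, 2.39 and 1.32 CPM in SNI+LDN193189 and 2.07, 2.96 and 1.94 CPM in SNI, and the interval of the ratio, 0.611 to 1.38, was the widest of the 10 members. Its log2 fold change was -0.12, and 0.13 without SNI+LDN193189 replicate 3. For Bambi the values were 4.71, 2.57 and 3.55 CPM in SNI+LDN193189 and 3.89, 2.96 and 3.32 CPM in SNI, with an interval of the ratio of 0.763 to 1.49. The 3 libraries of each group overlapped for Smad7, Smad6 and Bambi alike. Smad9, a receptor-activated SMAD that is itself induced by BMP, held 55.7, 63.4 and 64.8 CPM in SNI+LDN193189 and 63.0, 61.5 and 62.2 CPM in SNI, and its interval of the ratio was 0.891 to 1.09.

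Of the remaining target transcription factors Atoh8 stood higher with the compound. Atoh8, a basic helix-loop-helix factor induced by BMP in endothelium and liver, held 3.97, 3.29 and 3.38 CPM in SNI+LDN193189, against 2.73, 2.93 and 2.44 CPM in SNI and 3.27, 2.70 and 3.66 CPM in sham. SNI+LDN193189 and SNI did not overlap. The log2 fold change was 0.39 (95% interval -0.02 to 0.80), with an unadjusted p of 0.0595 and an adjusted p of 1.00 by edgeR, and it rested on 88 to 138 counts in a library. Hey1, a repressor that answers to Notch as well as to BMP, held 45.6, 45.2 and 39.2 CPM in SNI+LDN193189 and 47.7, 42.5 and 44.9 CPM in SNI, which overlapped. Without SNI+LDN193189 replicate 3 its log2 fold change was 0.01, against -0.06 with all libraries. Endothelial markers summed to 411 to 464 CPM in SNI+LDN193189 and 419 to 469 CPM in SNI. Of these 10 markers 7 had a negative log2 fold change, and Ly6c1, Slco1a4 and Abcb1a had a positive one. Kdr, the main VEGF receptor and among the 7, held 16.0 ± 3.36 CPM in SNI+LDN193189 and 25.8 ± 4.27 CPM in SNI (SD, n = 3 each, adjusted p = 1.00 by edgeR). The part of endothelial markers in the levels of Atoh8 and Hey1 was not tested. In bulk RNA fewer cells of a type and less RNA per cell cannot be told apart.

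SNI against sham asked whether the nerve injury changed the targets. None of the 10 members passed at a BH adjusted p under 0.05 by edgeR, and 0% of all genes did. An unadjusted p under 0.05 was reached by 2 members, Smad7 and Hey1, and by 5.33% of all genes, and the lowest adjusted p of a member was 0.900. Log2 fold changes were positive in 5 members and negative in 5, with a median of 0.05, against 0.00 over all genes, of which 50.1% were positive. Libraries did not overlap for Smad7 and Hey1, which were higher, as 4.45% of all genes were, and for Bambi, which was lower, as 4.43% were. Marker levels of other cells differed as well: all 8 nerve root markers had a negative log2 fold change with an unadjusted p under 0.05, and microglial markers summed to 210 to 228 CPM in SNI and 174 to 203 CPM in sham. Their part in the values of the targets was not tested beyond the nerve root covariate.

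Smad7 gave the smallest p of any member in this comparison, ranking 92 among the 18245 genes tested. The 27.4, 26.5 and 24.0 CPM of SNI stood against 21.3, 19.4 and 21.6 CPM of sham, so that every SNI library lay above every sham library. The log2 fold change was 0.32 (95% interval 0.11 to 0.53), a ratio of 1.25, with an unadjusted p of 0.00494 and an adjusted p of 0.900 by edgeR. Leaving out each library in turn gave 0.28 to 0.38, and the nerve root level as a covariate gave 0.23 (unadjusted p = 0.119 by edgeR). SNI+LDN193189 held 23.2, 22.9 and 29.1 CPM, also above every sham library, with a log2 fold change against sham of 0.27 (95% interval 0.06 to 0.48, unadjusted p = 0.0139, adjusted p = 0.535 by edgeR). That value was 0.15 without SNI+LDN193189 replicate 3, the library with the most Smad7. The gene lies on chromosome 18.

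Hey1 held 47.7, 42.5 and 44.9 CPM in SNI, against 38.1, 42.0 and 39.2 CPM in sham. The groups were separated by less than 1 CPM, with a log2 fold change of 0.18 (95% interval 0.02 to 0.34, unadjusted p = 0.0275, adjusted p = 0.927 by edgeR). Bambi, also on chromosome 18, held 3.89, 2.96 and 3.32 CPM in SNI and 3.91, 3.99 and 5.49 CPM in sham, a log2 fold change of -0.40 (95% interval -0.88 to 0.08, unadjusted p = 0.0973 by edgeR). Sham replicate 3 held the most Bambi and also the most meningeal fibroblast RNA, whose markers, 7 of them with counts and Ogn listed at 0, summed to 813 CPM there and to 109 to 310 CPM in the other 8 libraries. In the fit with nerve root level as a further term, Bambi stood at -0.09. Smad6 and Id1 stood at log2 fold changes of 0.27 and 0.10, Id3 and Atoh8 at -0.13 and -0.25, and Id2 and Id4 at -0.01 and -0.00, each with an interval across 0. Smad9 stood at 0.10, where SNI held 61.5 to 63.0 CPM and sham 53.8 to 62.3 CPM. Smad6 lies on chromosome 9 at 63953076 to 64022059, Atoh8 on chromosome 6 at 72206177 to 72235577, Hey1 on chromosome 3 at 8663359 to 8667256 and Smad9 on the same chromosome at 54755582 to 54801257 in GRCm38.

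**Figure D4:**
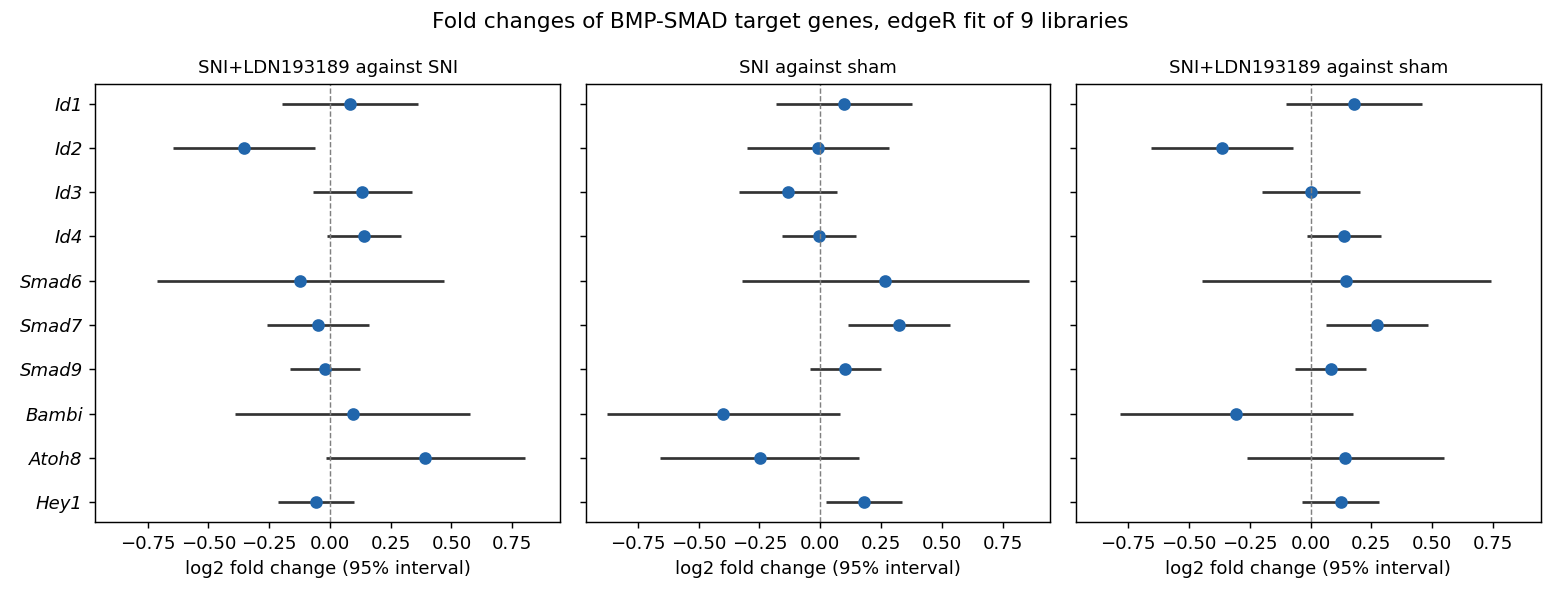
Log2 fold changes of the 10 BMP-SMAD target genes with 95% intervals in the 3 comparisons, from 1 edgeR fit of 9 libraries. The interval excludes 0 for Id2 in both comparisons with SNI+LDN193189, for Smad7 in both comparisons with sham and for Hey1 in SNI against sham, and none of the 10 genes passed after adjustment over all genes tested.

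SNI+LDN193189 against sham showed what remained different with injury and compound together. None of the 10 members passed by edgeR, where 0.0164% of all genes did, and the lowest adjusted p of a member was 0.535. An unadjusted p under 0.05 was reached by 2 members, Smad7 and Id2, and by 8.56% of all genes. Of the members 8 had a positive and 2 a negative log2 fold change, Id2 and Bambi, with a median of 0.13 against -0.01 over all genes, of which 48% were positive. Libraries did not overlap for Smad7, which was higher, as 6.81% of all genes were, and for Id2, which was lower, as 6.31% were. Id1 stood at 0.18 (95% interval -0.10 to 0.46), and the joint test of any difference among the 3 groups gave unadjusted p-values under 0.05 for Smad7 (0.0111) and Id2 (0.0358), where 5.94% of all genes had one. Adjusted over all genes the joint test gave 0.752 and 0.822 by edgeR.

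The rest of the pathway was described from lists of its parts, and no member of any list passed with a BH adjusted p under 0.05 in any of the 3 comparisons by edgeR. Among 11 receptors and co-receptors, Acvr1, which the series title names and which LDN193189 inhibits, held 29.6 ± 2.60 CPM in SNI+LDN193189, 29.6 ± 5.78 CPM in SNI and 27.7 ± 2.34 CPM in sham (SD, n = 3 each). Its log2 fold change was 0.00 with the compound and 0.10 with injury. Rgma, a co-receptor for BMP, held 52.7 ± 0.89 CPM in SNI and 47.4 ± 3.42 CPM in sham, with an unadjusted p of 0.0274 by edgeR. In SNI+LDN193189 against sham, 3 of the 11 receptor genes had an unadjusted p under 0.05, Rgma with a positive and Bmpr1b and Acvr2b with a negative log2 fold change, where 8.56% of all genes had such a p.

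Of 14 ligands 10 were tested, and 4 had a positive and 6 a negative log2 fold change with the compound and, separately, with injury. The smallest p among them were those of Bmp6 with the compound, at 8.03 ± 0.79 CPM in SNI+LDN193189 and 6.43 ± 1.54 CPM in SNI, and of Gdf10 with injury, at 4.59 ± 0.79 CPM in SNI and 3.79 ± 0.24 CPM in sham (SD, n = 3 each). None of the ligands had an unadjusted p under 0.05. Among 10 SMAD transducers and intracellular regulators, Skil, a repressor of SMAD-driven transcription, held 54.6 ± 4.33 CPM in SNI+LDN193189 and 62.5 ± 2.98 CPM in SNI, with no overlap and an unadjusted p of 0.0115 by edgeR. It was the 1 gene of the 10 in that list under 0.05. Of all genes 3.88% had such a p in this comparison, and 5.55% were lower without overlap. Smad1 and Smad5 had log2 fold changes of 0.12 and -0.06.

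Of 13 secreted antagonists 7 had a positive and 6 a negative log2 fold change with the compound, and 5 and 8 with injury. Sostdc1, an antagonist of BMP and Wnt, held 2.11 ± 0.94 CPM in SNI and 9.41 ± 8.32 CPM in sham, the sham libraries differing widely (unadjusted p = 0.0404 by edgeR). Nbl1 held 37.1 ± 3.18 CPM in SNI+LDN193189, 26.7 ± 1.71 CPM in SNI and 37.9 ± 11.9 CPM in sham (SD, n = 3 each). Further transcription factors that BMP induces in bone and other tissues passed the low-count filter in 5 of 8 cases, with Msx2 listed at 0. These 5 had a positive log2 fold change in SNI+LDN193189 against SNI, with a median of 0.14, and none had an unadjusted p under 0.05 by edgeR. Of all genes 49.8% were positive, with a median of -0.00. Gata2 held 6.51 ± 1.57 CPM in SNI+LDN193189 and 5.17 ± 1.32 CPM in SNI.

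The 7 genes of a Notch list, Hey1 left out, had median log2 fold changes of -0.06 with the compound and 0.04 with injury, where Dtx1 held 68.1 ± 3.52 CPM in SNI and 62.2 ± 2.20 CPM in sham (SD, n = 3 each, unadjusted p = 0.0584 by edgeR). The 7 tested targets of SMAD2 and SMAD3, the branch used by TGF-beta and activin, had median log2 fold changes of 0.08 and -0.11 in the same comparisons. The E protein genes Tcf3, Tcf4 and Tcf12, whose products ID proteins bind, had log2 fold changes of 0.03, -0.07 and 0.01 with the compound and 0.04, -0.02 and 0.01 with injury.

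The genes whose log2 CPM over the 9 libraries was most like that of Id1 were Tmub2, Tmem43, Dus4l, Fzd9 and Mageh1, with Pearson r of 0.93, 0.92, 0.91, 0.91 and 0.91. They are the highest of 12115 genes with at least 5 CPM, and since the libraries share groups, depth and tissue makeup, the values are a description. No other BMP-SMAD target gene was among them. Atoh8, Smad6 and Bambi, with means under 5 CPM, could not enter this ranking, and their r with Id1 was 0.60, 0.53 and 0.02. Absence from the first 5 of so many genes does not show whether the targets varied together.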

How the data were processed

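Per the deposited tables, 9 libraries of mouse spinal cord have raw counts per gene symbol, and FPKM that the authors made from them. In all 24535 genes with 2 or more counts above 0, FPKM equalled the count over the library total and a fixed length. The build was mm10 per the submitters' processing notes, and the aligner, counter and annotation are not given in the sources used here. Of the counts above 0 in a library, 70.7 to 71.8% were even. Counts were fitted with edgeR 4.0.16 in R 4.3.3 (filterByExpr, TMM, robust quasi-likelihood F test, all 9 libraries, group as the factor), with BH adjustment over 18245 genes. Standard errors were the log2 fold change over the root of F, and intervals used the t distribution. DESeq2 1.42.0, limma 3.58.1 on log2(FPKM + 0.1) and other settings were alternatives, and the fit was tested on simulated counts. All members were named; from each list, up to 3 genes with the smallest p in each comparison could be named, and further ones named were chosen after their values were seen. Members and lists were chosen with earlier results of these data known. Gene positions are from GENCODE M21.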

Additional observations from a re-analysis of the deposited data

How the results depend on the processing

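No BH adjusted p of a member fell under 0.05 in any of 17 settings, and the lowest was 0.104 (Id2, SNI+LDN193189 against sham, DESeq2). Of 30 fold changes 18 kept their direction in all settings. All genes called in SNI+LDN193189 against SNI were 1, with 2 unfiltered, 6 by DESeq2, 0 by limma, 3 in a 2-group fit, 0 with the nerve root or the Dbp covariate and 0 to 2 with a library left out. In SNI against sham they were 0, with 22 by DESeq2, 13 with the root covariate, 23 with Dbp and 0 to 38 with a library left out. In SNI+LDN193189 against sham they were 3, with 30 unfiltered, 73 by DESeq2, 1 by limma, 14 with the root covariate, 12 with Dbp and 1 to 17 with a library left out. Members at an unadjusted p under 0.05 in SNI+LDN193189 against SNI were 1, with 2 unfiltered, 2 by limma, 0 with the root or the Dbp covariate and 0 to 2 with a library left out. In SNI against sham they were 2, with 0 with the root covariate and 1 to 3 with a library left out, and in SNI+LDN193189 against sham 2, with 1 under either covariate and 1 to 4 with a library left out. With the replicate number as a block, genes called were 0 and members at an unadjusted p under 0.05 were 2 in SNI+LDN193189 against SNI. In the main fit 3.88% of all genes had such a p in SNI+LDN193189 against SNI, 5.33% in SNI against sham and 8.56% in SNI+LDN193189 against sham. The shares in the other settings are not given here, so a change in the count of members cannot be set against them. After group means were subtracted, same-numbered libraries of different groups correlated at -0.16 to 0.20, and differently numbered ones at -0.21 to 0.18. With 3 libraries per group, these values cannot decide whether the numbers pair the libraries.

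Directions turned with the root covariate in SNI+LDN193189 against SNI for Id1 (-0.021), Smad9 (0.033) and Bambi (-0.076), and in SNI against sham for Id3 (0.11) and Id4 (0.012). They turned with the Dbp covariate, added after seeing the data, in SNI+LDN193189 against SNI for Smad7 (0.029) and Smad9 (0.028), in SNI against sham for Id2 (0.23) and in SNI+LDN193189 against sham for Id2 (0.10) and Id3 (-0.27). Id3 in SNI+LDN193189 against sham was -7.5e-05 by DESeq2 and -0.0066 by limma. Leaving out a library gave, in SNI+LDN193189 against SNI, -0.33 to 0.13 for Smad6, -0.17 to 0.013 for Smad7, -0.063 to 0.044 for Smad9, -0.15 to 0.29 for Bambi and -0.095 to 0.010 for Hey1. It gave -0.095 to 0.11 for Id2 and -0.048 to 0.051 for Id4 in SNI against sham, and -0.088 to 0.11 for Id3 and -0.061 to 0.40 for Smad6 in SNI+LDN193189 against sham. The cause was not tested. Smad6, Bambi and Atoh8 rested on 46 to 204 counts a library, and the part of depth in their spread was not tested.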
